A study of Caenorhabditis elegans with 12 samples.

Results

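The 7 loci described here, W07G1.17, Y47H9A.5, R05D7.8, Y54G9A.14, F15H9.9, F08G2.17 and C05G6.5, are non-coding genes of C. elegans that lie on the strand opposite spliceosomal small nuclear RNA (snRNA) genes. They are 7 of the 32238 genes in the count tables, and 7 of 47 loci that the annotation places opposite an snRNA gene. They were chosen because their counts rose most in age-1; rde-4 double mutants. The choice named no reference strain, and age-1 was taken here as the reference. Their values in that comparison therefore describe the choice and are given with no test. Small RNAs of whole young adult worms, a bulk sample in which a change in cell number and a change in RNA per cell cannot be told apart, were sequenced from 4 strains grown at 20 °C, with 3 biological replicates each. The strains were the wild type N2 (WT), an rde-4 mutant with the ne301 allele, an age-1 mutant with the hx546 allele, and a double mutant (age-1; rde-4) with both alleles. Each genotype was 1 strain, so other differences between the strains cannot be told apart from the alleles.

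Spliceosomal snRNAs are short nuclear non-coding RNAs that join Sm and other proteins to form snRNPs, the particles that recognize splice sites and remove introns, and in worms each kind is made from many nearly identical gene copies. RDE-4 is a double-stranded RNA-binding partner of Dicer needed to make siRNAs, and age-1 encodes the catalytic subunit of the PI3 kinase of insulin signaling. The tables count, for each gene, reads on the strand opposite to it. A read counted on one of the 7 loci therefore carries the sequence of the snRNA strand, and a read counted on the snRNA gene itself carries the sequence of the locus. The tables hold neither read lengths nor read positions, so snRNA fragments and siRNAs of the same strand cannot be told apart.

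All 7 loci lie on the plus strand of WBcel235, are annotated as ncRNA, are 202 to 208 bases wide, and hold the whole of an snRNA gene of the minus strand. Y47H9A.5 (chromosome I, 11628149 to 11628355), F15H9.9 (chromosome I, 12149561 to 12149766) and R05D7.8 (chromosome I, 12173706 to 12173912) lie opposite the snRNA genes Y47H9A.2, F15H9.6 and R05D7.6. Y54G9A.14 (chromosome II, 13717547 to 13717754), F08G2.17 (chromosome II, 13835916 to 13836122) and W07G1.17 (chromosome II, 13948958 to 13949159) lie opposite Y54G9A.8, F08G2.9 and W07G1.9. The seventh, C05G6.5 (chromosome IV, 624064 to 624270), lies opposite C05G6.4. The opposite snRNA genes measure 185 bases at F08G2.9, 186 bases at C05G6.4 and 187 bases at the other five, and each locus runs 14 to 21 bases past the 3′ end of its snRNA gene. Which kind of snRNA each gene makes is not named in the annotation used here, so loci were grouped by the length of the opposite gene. The length group of 185 to 187 bases has 11 loci, the 7 and 4 others (F08G2.15, C47F8.10, F56H6.17 and the locus opposite the snRNA gene Y57G11C.35).

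The libraries held 2449703 to 3590005 counts each. Reads of miRNA genes, counted on the 43 loci opposite them, took 59.8% to 81.7% of a library's counts. Reads of tRNA genes, counted on 351 loci, took 5.04% to 23.8%. Reads of rRNA genes were those counted on 3 loci. Genes with no annotated locus on the other strand are left out of each class, so the shares do not measure all such reads. The age-1; rde-4 libraries differed from the rest in their makeup, since reads of rRNA genes took 4.88% to 10.8% of them and 0.983% to 3.42% of all the others. The scaling between strains therefore bears on the levels below, and counts, shares and scaled levels are given side by side. Counts of small RNAs against rde-4 (1 to 11) and age-1 (3 to 15) measure no mRNA and do not check the strain labels.

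W07G1.17 had counts of 98, 53 and 91 for WT, 211, 166 and 207 for rde-4, 48, 47 and 42 for age-1, and 353, 549 and 618 for age-1; rde-4. Every strain is separate from the others at this locus, with age-1 lowest and the double mutant highest. Y47H9A.5 followed the same order, with 97, 54 and 81 counts for WT, 208, 186 and 208 for rde-4, 55, 29 and 50 for age-1, and 384, 575 and 561 for age-1; rde-4. Its age-1 replicate 1 lies just inside the WT range. R05D7.8 had 98, 53 and 112 counts for WT, 221, 168 and 220 for rde-4, 59, 41 and 62 for age-1, and 354, 551 and 602 for the double mutant, and here age-1 and WT overlap as well.

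Y54G9A.14 was counted 81, 50 and 86 times for WT, 156, 155 and 203 times for rde-4, 56, 34 and 59 times for age-1, and 308, 519 and 592 times for age-1; rde-4. F08G2.17 was counted 82, 50 and 93 times for WT, 201, 180 and 231 times for rde-4, 57, 41 and 54 times for age-1, and 330, 548 and 636 times for age-1; rde-4. At both loci WT and age-1 overlap, through WT replicate 2, and no other neighbors in the order do. F15H9.9 held the highest counts of the 7 in every library, 160, 100 and 148 for WT, 308, 263 and 364 for rde-4, 119, 73 and 102 for age-1, and 493, 1041 and 1015 for age-1; rde-4. C05G6.5 held the lowest in every library, 19, 21 and 15 for WT, 83, 71 and 52 for rde-4, 20, 19 and 20 for age-1, and 168, 272 and 329 for age-1; rde-4, so that WT and age-1 fell together while the strains with the rde-4 allele stood above them. In the double mutant replicate 1 had the lowest count at each of the 7 loci.

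**Figure D1:**
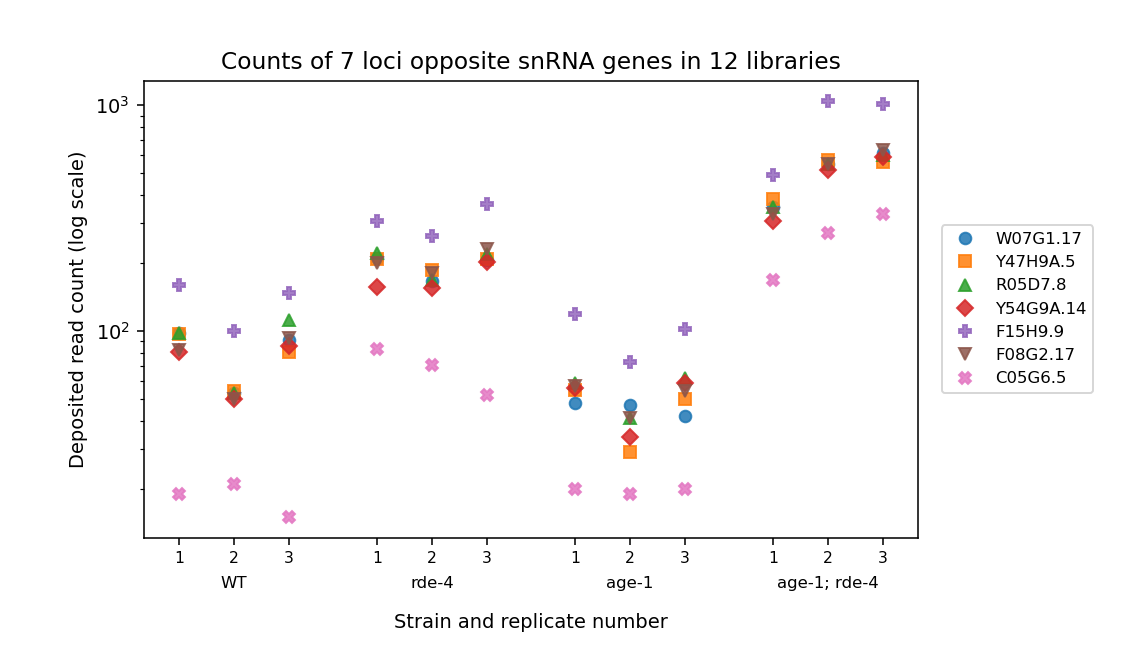
Deposited read counts (log axis) of the 7 loci opposite snRNA genes in 12 libraries, by strain and replicate; each marker is 1 locus. F15H9.9 is at the top and C05G6.5 at the bottom of every library, and age-1; rde-4, at 168 to 1041 counts, is above the age-1 libraries, at 19 to 119.

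The 7 loci cannot be taken as 7 separate measurements. In the Ensembl annotation the snRNA genes opposite W07G1.17, R05D7.8, F08G2.15 and C47F8.10 carry one gene name, C47F8.9, and the loci R05D7.8, F08G2.15 and F08G2.17 themselves are all named R05D7.8, though the tables keep them apart. A read that matches several copies was kept where it had at most 50 hits, so a count on 1 copy may come from another. Within a library the 5 loci other than F15H9.9 and C05G6.5, a set named after its values were seen, had counts of 50 to 54 for WT replicate 2 and 519 to 575 in replicate 2 of age-1; rde-4. The ratio of the variance between these copies to their mean had a median of 1.01 over the 12 libraries (0.0673 to 3.21), where counts drawn at random from 1 shared level would give a ratio near 1. With F08G2.15 and C47F8.10 added to the 5, the median was 0.924 (0.191 to 2.50). Over all 7 loci it was 18.8 (7.13 to 90.3), because F15H9.9 and C05G6.5 stood apart.

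F15H9.9 took 25.0% ± 1.31 of the summed count of the 7 loci for WT, 22.9% ± 1.36 for rde-4, 26.9% ± 1.63 for age-1 and 23.2% ± 2.52 for age-1; rde-4 (SD, n = 3). C05G6.5 took 3.63% ± 1.65 for WT, 5.15% ± 1.43 for rde-4, 5.55% ± 0.996 for age-1 and 7.10% ± 0.429 for age-1; rde-4. The mean part of C05G6.5 was lowest in WT and highest in the double mutant. At these near-equal widths the counts of the 7 loci can be set beside each other without a length correction.

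The comparison of rde-4 with WT was tested. It uses none of the libraries of age-1; rde-4 against age-1, taken here as the contrast that chose the loci. Whether rde-4 or WT libraries also entered the choice is not known. All 7 loci were higher in rde-4 (edgeR's quasi-likelihood test, Benjamini-Hochberg adjusted over 4797 genes), where 10.8% of all genes tested were higher and 16% lower. The libraries of the 2 strains did not overlap in CPM (counts scaled to library size) at 7 of 7 loci, against 16.3% of all genes tested. C05G6.5 had the largest difference, 29.6 ± 8.26 CPM for rde-4 and 6.33 ± 1.91 CPM for WT (SD, n = 3), with a log2 fold change of 2.24 (SE 0.39, edgeR adjusted p = 0.000422). F08G2.17 followed with 87.0 ± 8.90 CPM against 26.6 ± 11.6 CPM, with a log2 fold change of 1.72 (SE 0.42, edgeR adjusted p = 0.00529). The most abundant locus, F15H9.9, rose from 48.5 ± 21.8 CPM to 133 ± 18.3 CPM, with a log2 fold change of 1.46 (SE 0.43, edgeR adjusted p = 0.0169), the smallest of the 7. W07G1.17, Y47H9A.5, R05D7.8 and Y54G9A.14 rose by log2 fold changes of 1.53, 1.63, 1.48 and 1.51. The median of the 7 was 1.53, and that of all genes tested was 0.06.

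Since the copies may share reads, to an extent not analysed here, their sum was tested as 1 feature. The 7 loci summed were at 579 ± 62.3 CPM for rde-4 and 195 ± 88.6 CPM for WT, 2.97-fold higher (log2 fold change 1.57, SE 0.44, edgeR adjusted p = 0.0128). The sum of the 11 loci opposite snRNA genes of 185 to 187 bases gave a log2 fold change of 1.49 (SE 0.45, edgeR adjusted p = 0.0204). With a replicate block and all 6 libraries, the log2 fold change of the sum was 1.67 (edgeR adjusted p = 0.000147). In the main fit, which has no such block, the call rests on single libraries. No library was left out of the block fit or of the other alternatives. Without WT replicate 2, in which the sum and every locus but C05G6.5 were lowest, the log2 fold change of the sum was 1.24 (edgeR adjusted p = 0.114) and only C05G6.5 of the 7 remained past the threshold. Without WT replicate 3 the sum gave 1.54 (edgeR adjusted p = 0.0556), and without rde-4 replicate 1 it gave 1.51 (edgeR adjusted p = 0.0527), with 4 of the 7 loci past the threshold in each case. The direction held at every locus in each of these fits. These edgeR p-values set each difference against a spread estimated from biological replicates, 3 to a strain where none was left out.

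**Figure D2:**
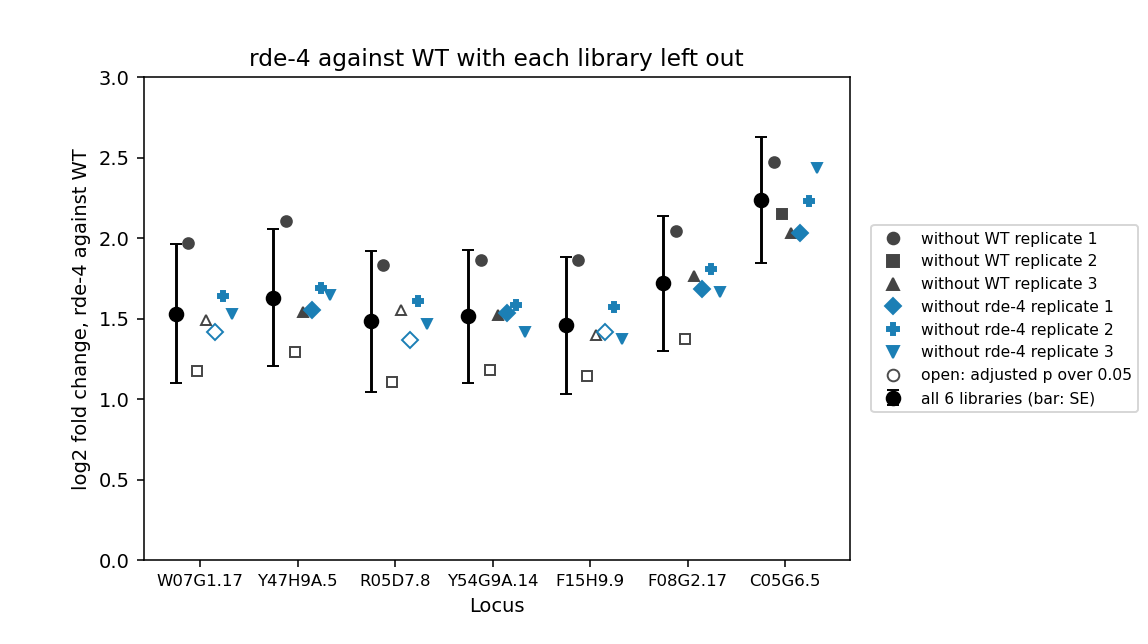
Log2 fold change of rde-4 against WT (y axis) for the 7 loci from all 6 libraries (black, with SE) and with each library left out (gray for WT, blue for rde-4; open markers have an adjusted p over 0.05). Without WT replicate 2 the values are lowest at the first 6 loci and 1 of 7 stays past the threshold, C05G6.5.

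In the contrast that chose the loci, the 7 loci summed to 2390, 4055 and 4353 counts for age-1; rde-4 and to 414, 284 and 389 for age-1. They took 0.120% ± 0.0390 of all counts for the double mutant and 0.0117% ± 0.00340 for age-1 (SD, n = 3), which is 10.2 times as large a share. The TMM factors (trimmed mean of M-values, which set the bulk of the genes level between libraries) were 0.432 to 0.596 for the double mutant and 0.948 to 1.73 for the other strains. On the TMM scale the sum was at 1872 ± 370 CPM and 73.3 ± 17.9 CPM, a log2 fold change of 4.67, and the 7 loci ranged from 4.46 at F15H9.9 to 5.06 at C05G6.5. Scaled by library totals alone, the log2 ratio of the group means was 3.35, and scaled by the reads of miRNA genes it was 3.54. The size of the difference therefore depends on the scaling, while its direction was the same in each. All 7 loci were without overlap between the strains, which held for 22.2% of all genes tested in this contrast; since the rule used it, nothing is read from that count.

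The order of loci in this contrast has no clean step at the members. C15F1.14, opposite sup-39, a U1 snRNA gene, had a log2 fold change of 4.76, and F08G2.15 and C47F8.10 had 4.59 and 4.56. These lie above F15H9.9, at 4.46, the lowest of the 7, and do not belong to them. The next locus below was the one opposite Y57G11C.35, at 4.00.

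The comparison of age-1 with WT shares its age-1 libraries with that contrast and is described with no test. The 7 loci had negative fitted log2 fold changes, from -1.21 (SE 0.40) at W07G1.17 to -0.24 (SE 0.40) at C05G6.5, with -0.99 (SE 0.39) for the sum. At C05G6.5 the raw counts of these strains fell together, at 15 to 21 for WT and 19 to 20 for age-1. The sum was at 112 ± 30.0 CPM in age-1 and 224 ± 103 CPM for WT, and WT replicate 2, at 381 counts, stood below age-1 replicate 1, at 414. The double mutant stood above rde-4 by log2 fold changes of 1.91 to 2.52, with 2.02 for the sum, 1.21 by library totals and 1.35 by the reads of miRNA genes. Against WT it stood higher by 3.66 to 4.98, with 3.85 for the sum, 2.56 by library totals and 2.91 by the reads of miRNA genes. Both comparisons share the double mutant libraries with the contrast that chose the loci and were not tested. From lowest to highest the 4 strains ran age-1, WT, rde-4 and age-1; rde-4, and age-1 and WT were the only neighbors whose summed counts overlapped.

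The other strand of the same gene pairs gave another picture. Reads counted on the 7 snRNA genes, which carry the sequence of the loci, summed to 215, 158 and 199 for WT, 197, 236 and 160 for rde-4, 87, 47 and 152 for age-1, and 37, 84 and 70 for age-1; rde-4. By raw counts they had their lowest mean in the double mutant, 63.7 ± 24.1 against 95.3 ± 53.0 for age-1 (SD, n = 3), with overlap between these strains, but on the TMM scale their log2 fold change between the same strains was 0.80, the opposite direction. Between rde-4 and WT their sum had a log2 fold change of 0.34 (SE 0.41, edgeR adjusted p = 0.656). Of the 7 snRNA genes, 0 passed the threshold in edgeR and 0 in DESeq2, and 0 had an unadjusted p under 0.05 in either. W07G1.9, opposite W07G1.17, had the largest value, 0.76 (SE 0.37, edgeR adjusted p = 0.16).

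The ratio of the strands needs no scaling between libraries. Reads on the 7 loci per read on their snRNA genes were 2.95, 2.41 and 3.15 for WT and 7.05, 5.04 and 9.28 for rde-4. The means, 2.84 ± 0.381 and 7.12 ± 2.12 (SD, n = 3), differed 2.51-fold, and the strains did not overlap (two-sided exact permutation test, p = 0.1, the smallest that 3 against 3 can give; adjusted p = 0.15 over 12 exact tests). In age-1 the ratio was 4.76, 6.04 and 2.56, and in age-1; rde-4 it was 64.6, 48.3 and 62.2. The ratio in the double mutant was above that of every other library, and that of age-1 overlapped both WT and rde-4. C05G6.5 had the lowest pooled ratio in every strain, from 0.733 for WT to 25.6 for age-1; rde-4, and F15H9.9 the highest, from 5.04 to 87.9.

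**Figure D3:**
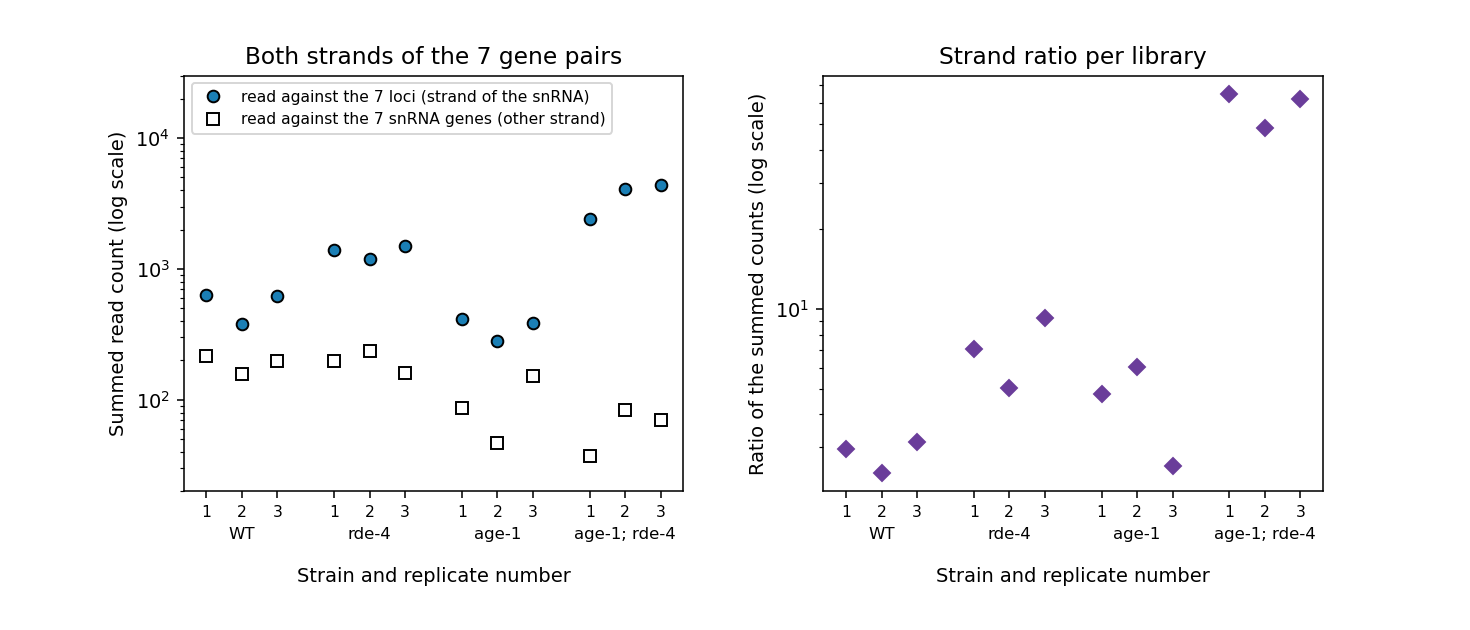
Left, summed read counts (log axis) on the 7 loci (filled, the snRNA strand) and on the 7 snRNA genes opposite them (open) in each library; right, their ratio (log axis). The ratio is 2.41 to 3.15 for WT, 5.04 to 9.28 for rde-4, 2.56 to 6.04 for age-1 and 48.3 to 64.6 for age-1; rde-4.

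Other loci opposite snRNA genes fell into groups by the length of the snRNA gene. Of the 47 loci 33 were tested in rde-4 against WT and 14 were too low. 16 were higher and 0 were lower, by edgeR, against 10.8% and 16% of all genes tested. At an unadjusted p under 0.05 in edgeR 0 were lower, and 0 were lower by DESeq2. At 185 to 187 bases, 10 of 11 were higher. The exception, F56H6.17, had 380, 151 and 161 counts for WT and 457, 336 and 278 for rde-4, with a log2 fold change of 0.83 (SE 0.52, edgeR adjusted p = 0.31). The locus opposite Y57G11C.35, the most abundant of this group in rde-4, had 280, 167 and 268 counts for WT and 625, 607 and 621 for rde-4, with a log2 fold change of 1.64 (SE 0.44, edgeR adjusted p = 0.00943). Both C47F8.10 and F08G2.15 rose, by log2 fold changes of 1.78 and 1.84. Without WT replicate 2, 9 of the loci opposite snRNA genes and 3 of these 11 were higher, and without WT replicate 3 or rde-4 replicate 1 it was 7 of the 11.

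At 165 to 170 bases, 6 of 6 loci were higher in rde-4, with log2 fold changes of 1.53 to 2.19. Without rde-4 replicate 1, 4 of the 6 were higher, and with any other library left out 5 or 6 were. C15F1.14, the most abundant of them, had 92, 47 and 46 counts for WT, 228, 332 and 132 for rde-4, 99, 72 and 60 for age-1, and 403, 1070 and 1036 for age-1; rde-4. Its strains with the rde-4 allele lie above both strains without it. The 7 loci summed to 2980 ± 871 per 1000 counts of this group in WT and 2796 ± 1616 for rde-4, overlapping ranges (two-sided exact permutation test, n = 3, p = 0.8).

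At 119 to 126 bases none of 8 tested loci passed the threshold: 0 were higher and 0 lower in edgeR, with 0 at an unadjusted p under 0.05, and 0 in DESeq2. Their median log2 fold change was -0.28, and their summed counts were 637, 554 and 370 for WT, 547, 383 and 184 for rde-4, 303, 158 and 222 for age-1, and 133, 318 and 233 for age-1; rde-4. By raw summed counts the libraries of rde-4 and WT overlap in this group, as do the age-1 and double mutant libraries. On the TMM scale, with no test, the median log2 fold change of the 8 was 1.27 for the double mutant against age-1 and -1.60 for age-1 against WT. For the double mutant against age-1, 4 of 8 were without overlap, against 22.2% of all genes tested. Per 1000 counts of this group the 7 loci summed to 997, 688 and 1692 for WT and to 2537, 3104 and 8071 for rde-4, 4.06-fold higher by the means (two-sided exact permutation test, n = 3, p = 0.1, the smallest possible). The corresponding values were 1366, 1797 and 1752 for age-1 and 17970, 12752 and 18682 for age-1; rde-4. The double mutant is above every other library on this measure. Of the loci opposite genes of 110 to 111 bases, which make spliced leader RNAs of the sls-2 family, 0 of 4 passed in edgeR or DESeq2 and 0 had an unadjusted p under 0.05. Opposite genes of 93 to 105 bases, 0 of 3 tested loci passed in edgeR and 0 of 6 in DESeq2, with 1 at an unadjusted p under 0.05 in each. All 3 tested in edgeR had log2 fold changes of at least 0.923, and at C28A5.9 the libraries of rde-4 and WT did not overlap in CPM. Without WT replicate 1, 2 of 5 tested loci passed, and 1 of 6 did without WT replicate 2 or without rde-4 replicate 3. With any other library left out, 0 passed. F10D2.15, opposite the 1 gene of 142 bases, had a log2 fold change of 1.35 (SE 0.50, edgeR adjusted p = 0.0586), and it passed the threshold without WT replicate 1 or rde-4 replicate 3.

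**Figure D4:**
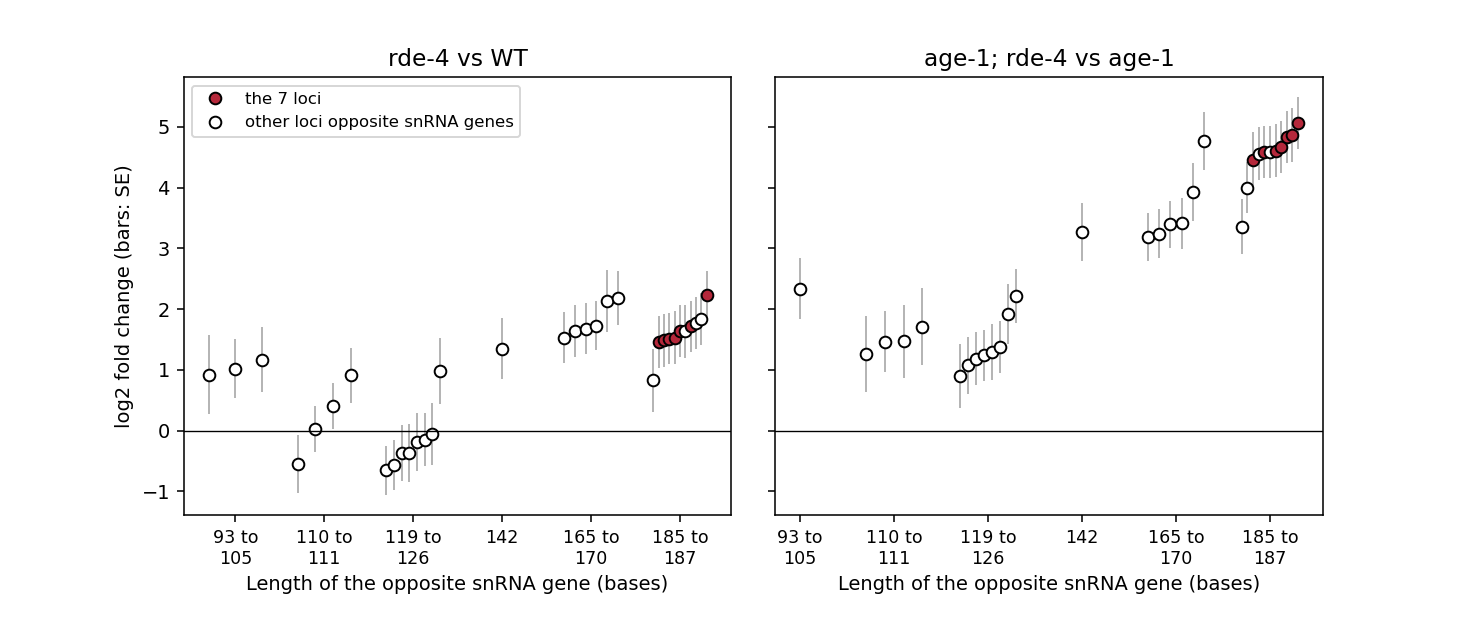
Log2 fold change with SE (y axis) of the loci opposite snRNA genes, by the length of the snRNA gene in bases (x axis), for rde-4 against WT (left) and age-1; rde-4 against age-1 (right, the contrast that chose the filled loci, on the TMM scale). Filled points are the 7 loci; on the left they lie at 1.46 to 2.24, and the group at 119 to 126 bases has a median of -0.28.

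The levels were also set against the reads of other structural RNAs. Reads of tRNA genes took 6.28% of the WT counts and 18.8% of the rde-4 counts, and reads of rRNA genes, counted on 3 loci, 1.43% and 2.85%. Neither class overlapped between these strains (two-sided exact permutation tests, n = 3, p = 0.1 for each, the smallest possible). Per 1000 reads of tRNA genes the 7 loci summed to 4.15, 1.69 and 4.71 counts for WT and 2.38, 2.25 and 4.01 for rde-4, overlapping ranges (two-sided exact permutation test, n = 3, p = 0.6). Per 1000 reads of rRNA genes they summed to 11.4 to 20.8 over the WT libraries and 16.6 to 21.9 over the rde-4 libraries, which overlap too (two-sided exact permutation test, n = 3, p = 0.3). Relative to either class the ranges of rde-4 and WT overlapped. An exact permutation test that cannot go below p = 0.1 cannot decide whether these strains differ on either measure. The part of these classes in the rise of the 7 loci was not tested. Relative to the reads of miRNA genes, the 7 loci summed to 0.281, 0.182 and 0.296 per 1000 for WT and 0.719, 0.734 and 0.786 per 1000 for rde-4, which do not overlap (two-sided exact permutation test, n = 3, p = 0.1). In the double mutant the 7 loci summed to 2.63, 7.10 and 8.23 per 1000 reads of tRNA genes, against 1.57, 0.332 and 2.24 for age-1. Per 1000 reads of rRNA genes they summed to 15.3, 16.1 and 13.5 for the double mutant and to 14.3, 3.94 and 12.9 for age-1. Adjusted over the 12 exact tests, a p of 0.1 became 0.15, and the p-values of 0.3, 0.6 and 0.8 became 0.4, 0.72 and 0.8. On the measure against rRNA genes age-1 replicate 2 was lowest, at 3.94, and all other libraries lay between 11.4 and 21.9.

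**Figure D5:**
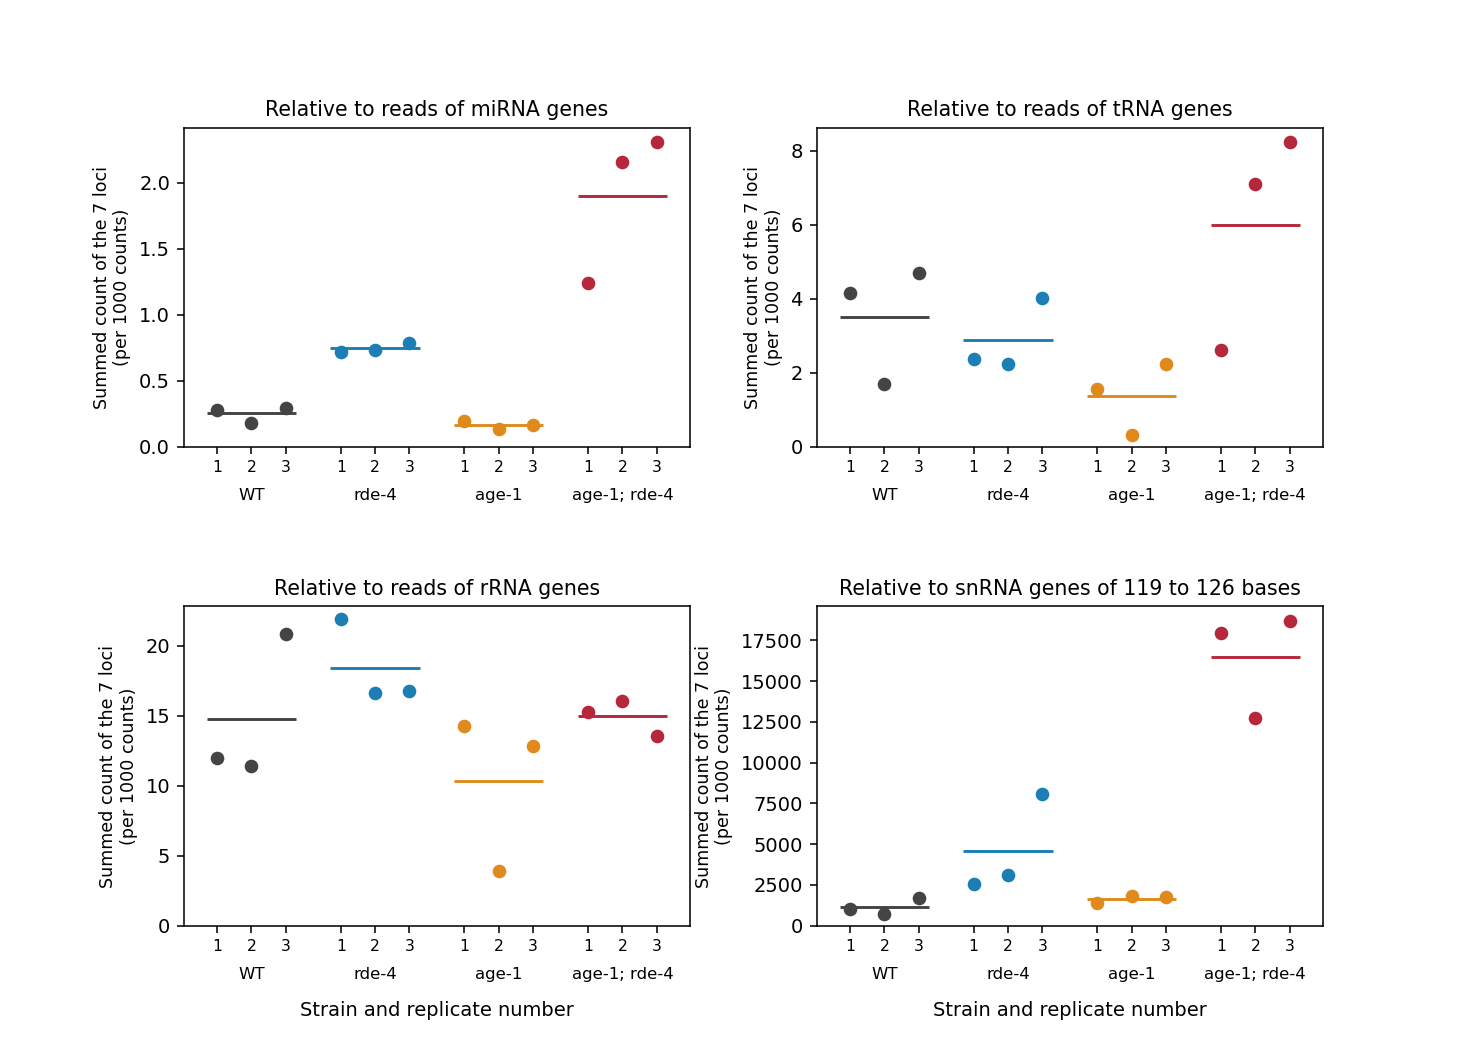
Summed count of the 7 loci per library per 1000 reads of miRNA genes, tRNA genes, rRNA genes (counted on 3 loci) and snRNA genes of 119 to 126 bases. Points are libraries and lines are means of 3. Relative to rRNA genes the double mutant, at 13.5 to 16.1, lies within the WT and rde-4 range of 11.4 to 21.9, and relative to snRNA genes of 119 to 126 bases it lies above every other library, at 12752 to 18682.

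Small RNAs against the genes for snRNP proteins were looked at beside the snRNA loci. Of a list of 36 genes for Sm, LSm and other snRNP proteins and for factors of snRNA transcription, 35 were in the tables and 12 had enough counts to test. In rde-4 against WT 0 were higher and 0 lower by edgeR, with 0 at an unadjusted p under 0.05; by DESeq2 0 of 30 passed, with 1 at an unadjusted p under 0.05. Without WT replicate 3, 1 of 15 tested was higher in edgeR. The smallest adjusted p-values were those of the Sm protein genes snr-3, with a log2 fold change of -0.80 (SE 0.48, edgeR adjusted p = 0.282), and snr-2, with 0.73 (SE 0.50, edgeR adjusted p = 0.367). The median log2 fold change of the 12 was -0.00, against 0.06 for all genes.

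Outside the loci opposite snRNA genes, the pattern most like that of the 7 loci over the 12 libraries belonged to H35N09.4, a locus opposite a tRNA gene (Pearson r = 0.966 with the sum of the 7 loci, on log2 CPM). It was followed by rrn-4.3 (r = 0.960) and rrn-4.4 (r = 0.958), both 5S rRNA genes, and by F08G5.21 (r = 0.958) and H08J11.7 (r = 0.955), both opposite tRNA genes. Reads counted on the 5S rRNA genes lie on the strand opposite the rRNA. For WT and rde-4, rrn-4.3 had 846 to 899 and 831 to 926 counts, and rrn-4.4 had 900 to 965 and 866 to 1058. In raw counts these strains overlapped at both genes, unlike at the 7 loci, while the double mutant lay above age-1. The 12 points share 4 strains and 1 set of scaling factors, so these values describe likeness only. H35N09.4 had 1607 to 2224 counts for WT, 2340 to 3229 for rde-4, 1185 to 2731 for age-1 and 2696 to 3609 for age-1; rde-4, so that in raw counts the double mutant overlapped age-1 and rde-4, unlike at the 7 loci. F08G5.21 had 84 to 101 counts for WT, 184 to 422 for rde-4, 78 to 84 for age-1 and 244 to 413 for the double mutant, so that its 2 strains with the rde-4 allele overlapped.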

How the data were processed

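The authors mapped small RNA reads, from libraries enriched for RNAs with a 5′ monophosphate and inserts of 18 to 40 bp, with QuasR and Bowtie to the C. elegans genome (build WBcel235, annotated by RefSeq, release WS283), allowing 50 hits per read, and deposited raw counts of reads on the opposite strand of each gene. The sources used here give no tool versions. The 3 tables of 32238 genes repeat the WT and age-1 libraries; the 6 repeated columns held 0 differing values and each library was used once. Counting used strand.

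The 7 loci and the gene lists were chosen with earlier results of these data known. Loci were placed by name in the Ensembl annotation (release 115) and a RefSeq gene table; 31457 genes were placed and 781 not. A step of 5 bases or more between successive lengths of snRNA genes began a new length group, a rule set after the lengths were seen. Named were the 7 loci, loci opposite snRNA genes by length group, the snRNA genes opposite the 7, the 5 genes outside the class most like their sum (log2 of CPM plus 0.5), and counts for snRNP genes.

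For each comparison edgeR 4.0.16 (R 4.3.3) was run on its 6 libraries with filterByExpr, TMM scaling and the quasi-likelihood test, with an adjusted p under 0.05 as the threshold; the SE is the log2 fold change divided by the root of F. Only rde-4 against WT was tested. The script was tested on simulated data. Exact permutation tests (scipy 1.17.1) were two-sided, and their p-values were adjusted over 12 tests. Deviations from the group means of WT and rde-4 replicates with the same number correlated at 0.32, 0.19 and 0.40. The replicate numbers may therefore pair the libraries. The main fits and the exact tests did not use this pairing, and a replicate block was fitted only as an alternative. Alternatives were RLE factors, library totals, scaling by reads of miRNA genes, no filter, DESeq2 1.42.0, a fit of 12 libraries, a replicate block, sums over 11 loci and leaving out each library. No genome sequence was used, so the share of each copy that is unique to it was not analysed here.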

Additional observations from a re-analysis of the deposited data

How the results depend on the processing

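In rde-4 against WT each of the 7 loci had a log2 fold change above 0 under all 13 alternatives (1.11 to 2.47), and 79 of 91 values stayed past the threshold. The 12 that did not came from leaving out WT replicate 2, WT replicate 3 or rde-4 replicate 1; the cause was not tested. Leaving out 1 library at a time, 1 to 7 of the loci were higher, 9 to 20 of the loci opposite snRNA genes were higher, and the log2 fold change of the sum was 1.24 to 1.97. The replicate block changed no call of the 7 loci; with it 19 rather than 16 loci opposite snRNA genes were higher and the sum was higher by 1.67 (edgeR adjusted p = 0.000147). Library totals in place of TMM moved the median log2 fold change of all genes from 0.06 to -0.24 and the median of the 7 loci from 1.53 to 1.31. Without a test, the log2 ratio of the group means of the sum was 4.67 for age-1; rde-4 against age-1 (3.35 by library totals, 3.54 by reads of miRNA genes), 2.02 against rde-4 (1.21 and 1.35) and 3.84 against WT (2.56 and 2.91). Exact tests of 3 against 3 cannot go below p = 0.1; C05G6.5 had the lowest counts of the 7 loci, 15 to 21 for WT.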

Other observations

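The loci opposite the sls-2 spliced leader genes differed widely between replicates of a strain. R12E2.18, opposite sls-2.4 and the most abundant of the 4, had 532, 432 and 259 counts in WT, 324, 142 and 224 for rde-4, 176, 473 and 74 for age-1, and 531, 83 and 236 for age-1; rde-4. Its highest age-1 library was replicate 2, in which C17C3.22 was also highest, at 155 counts against 20 and 29. In the same library reads of tRNA genes took 23.8% of all counts, against 9.24% and 5.63% in the other age-1 libraries. The 7 loci summed to 284 counts in age-1 replicate 2, the lowest of the 3. F56H6.17, of the same length group as the 7 loci, equaled 41.7% ± 17.2 of the sum of the 7 loci in WT and 18.0% ± 0.565 for age-1; rde-4 (SD, n = 3), while F08G2.15 equaled 13.0% ± 0.996 and 13.8% ± 0.528.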
